A study of Mus musculus with 6 samples.

Results

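The mitosis and spindle genes are 45 genes whose products take a cell from entry into mitosis to the cut between its daughters. They were picked out by gene symbol, with no measured value in the rule, and all 45 were present among the 54532 gene identifiers of the deposited files. All 45 also passed the filter for testing, a mean of at least 1 FPKM over the 6 libraries. The study knocked down either PGAM5 or DRP1 in macrophages that had been grown from mouse bone marrow and immortalised, so that they keep dividing in culture, to ask how PGAM5 bears on anti-inflammatory responses. PGAM5 is a protein phosphatase of mitochondria, and DRP1, the product of Dnm1l, is the GTPase that divides mitochondria. The PGAM5 knockdown group (genotype label PGAM5 KD, titles shPGAM5) and the DRP1 knockdown group (DRP1 KD, shDRP1) had 3 libraries each. Both groups carried a short hairpin RNA delivered by infection, and both were kept with 10 ng/ml interleukin-4 for 24 h, so interleukin-4 itself is not compared. Cells with a control hairpin or without interleukin-4 were not analysed here, so a shift from the PGAM5 knockdown and one from the DRP1 knockdown cannot be told apart. Whether the libraries numbered 1 to 3 in the titles are separate cultures or separate hairpins is not said, so a p-value here measures no more than the spread among them, which may be technical.

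Mitosis begins when the kinase CDK1, bound to a B-type cyclin and freed of inhibitory phosphate by CDC25 phosphatases, becomes active. Chromosomes then attach to spindle microtubules through kinetochores, the spindle checkpoint holds back the anaphase-promoting complex (APC/C) until all are attached, and kinesin motors and the central spindle carry out segregation and cytokinesis. The RNAs of most of these genes are made in late S, G2 and M phase and fall in non-dividing cells, so their summed level is widely read as a mark of cycling cells.

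Of the 45 genes, 7 were higher and 1 was lower in the PGAM5 knockdown than in the DRP1 knockdown, and 37 did not pass (limma on log2(FPKM + 1), threshold an adjusted p of 0.05 over all 10634 genes tested). FPKM is the number of sequenced fragments per kilobase of exon, scaled to the total of the library. The genes that were higher were the mitotic kinases Cdk1 and Aurka, the checkpoint genes Bub1 and Bub1b, the APC/C partner Ube2c, and the kinetochore genes Ndc80 and Spc24. The gene that was lower was the phosphatase Cdc25c. Over all genes tested, 13.8% were called higher and 11.7% lower, so the members' 15.6% higher was near the background and their 2.22% lower was below it. The members' median difference was near 0, at 0.04 on the log2 scale against 0.01 for all genes tested. More members lay above 0 (31 of 45) than below it (14 of 45), where 52.3% of all genes lay above 0. No member's mean was more than 1.5 times higher in the PGAM5 knockdown, while that of Cdc25c was 1.57 times higher in the DRP1 knockdown. In bulk RNA, a smaller share of cells in mitosis and less RNA per cell cannot be told apart.

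**Figure D1:**
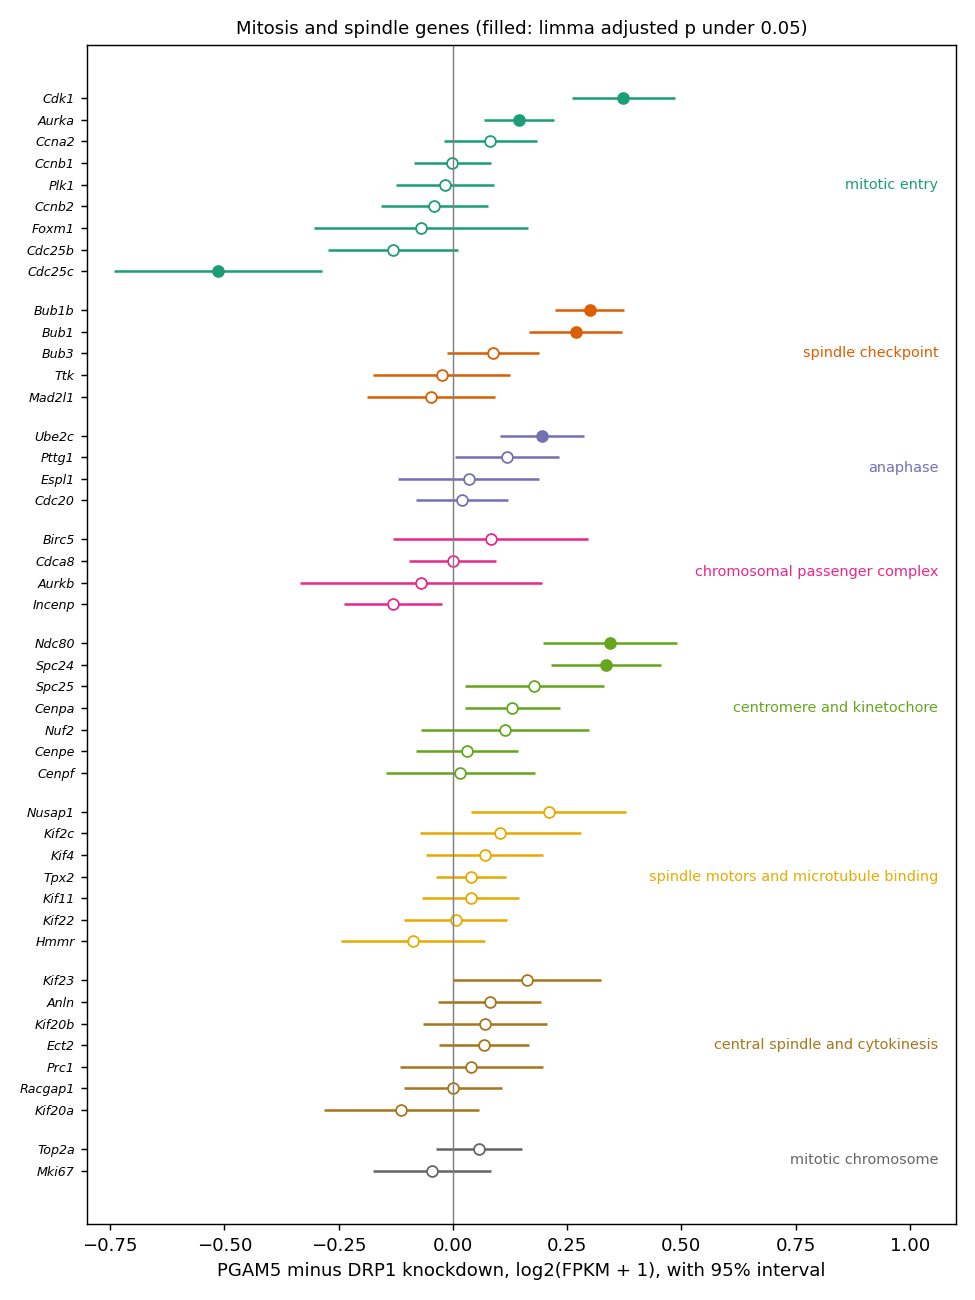
Difference between the knockdowns (x axis, PGAM5 minus DRP1 knockdown, log2(FPKM + 1)) for each of the 45 genes (y axis), grouped and coloured by role. Points are limma estimates with 95% intervals and filled points passed an adjusted p of 0.05: 7 filled points lie to the right of 0 and 1, Cdc25c, to the left.

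The depth at which the deposited values came out as whole reads was 16111280 to 21933548 per library. Reads recovered per gene summed to 105.5% to 107.1% of that depth, so it is a fitted scale and not a full count of reads. Pgam5 (chr5:110259130-110269913, mm10, minus strand) measured 4.910, 5.214 and 4.602 FPKM after PGAM5 knockdown against 17.3, 17.1 and 17.2 after DRP1 knockdown, a log2 difference of -1.62. Dnm1l (chr16:16312230-16358959, minus strand) measured 17.2, 18.7 and 17.7 FPKM after PGAM5 knockdown against 8.18, 7.42 and 7.12, a difference of 1.14. Each targeted gene was thus lower in its own knockdown, with no overlap of the groups. Of Pgam5's exonic bases, 58.1% lie opposite those of the gene Gm26718, which was at 0 FPKM in every library. Of 10 macrophage markers, 9 had a mean of at least 1 FPKM, while Mertk stayed between 0 and 0.0130. The summed level of the 10 was 3776 to 3947 FPKM after PGAM5 knockdown and 4827 to 4871 after DRP1 knockdown. Of the 9 tested, 4 were called lower, namely Csf1r, Lyz2, Cd68 and Fcgr1 (log2 differences -0.60, -0.62, -0.44 and -0.22), and none higher. Of all genes tested, 11.7% were called lower and 13.8% higher. Adgre1, Spi1, Itgam, Cd14 and Ptprc were tested and not called. Of the other cell types, none of 20 markers of T cells, B cells, granulocytes, fibroblasts, dendritic cells and endothelium reached a mean of 1 FPKM, and 8 of them had 0 reads in all 6 libraries. Their summed level was 0.525 to 0.594 FPKM after PGAM5 knockdown and 0.606 to 0.628 after DRP1 knockdown, and the part of either set of markers in the results was not tested. PGAM5 knockdown library 3 stood apart in its group, with a chi-square per gene of 7.28 and 5.25 against libraries 1 and 2 where the other pairs within groups gave 2.52 to 3.04. Without that library the same 8 members were called.

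Most of the members share short stretches of promoter sequence, which the choice of the members did not use. Genes expressed in G2 and M phase often carry a cell cycle genes homology region (CHR), which is bound by the MuvB core of the DREAM complex and of its B-MYB and FOXM1 counterparts, together with CCAAT boxes, the element bound by NF-Y. RefSeq windows on GRCm38.p6, from 250 bases before to 50 bases after the transcript start, were at hand for 37 of the 45 members, and Ccna2, Cdc25c, Foxm1, Aurkb, Incenp, Spc24, Tpx2 and Kif20a had no entry. The letters searched on both strands were CCAAT for the NF-Y box and TTTGAA or TTCGAA for the CHR. TTCGAA is its own reverse complement, and in 2 members matches shared bases with each other. A match describes the letters only, and whether it is bound or bears on the differences was not tested. The windows below are those of the 6 called members with an entry, and of Cdc20, the most abundant member, which was not called. Each is written 5′ to 3′ on the gene's own strand, with every match in capitals; on the opposite strand CCAAT reads as ATTGG, and there TTTGAA reads as TTCAAA. They lie at chr10:69352863-69353162 (Cdk1, minus strand), chr2:172370521-172370820 (Aurka, minus), chr2:127831810-127832109 (Bub1, minus), chr2:118597961-118598260 (Bub1b, plus), chr2:164769679-164769978 (Ube2c, plus), chr17:71526808-71527107 (Ndc80, minus) and chr4:118437294-118437593 (Cdc20, minus).
Cdk1: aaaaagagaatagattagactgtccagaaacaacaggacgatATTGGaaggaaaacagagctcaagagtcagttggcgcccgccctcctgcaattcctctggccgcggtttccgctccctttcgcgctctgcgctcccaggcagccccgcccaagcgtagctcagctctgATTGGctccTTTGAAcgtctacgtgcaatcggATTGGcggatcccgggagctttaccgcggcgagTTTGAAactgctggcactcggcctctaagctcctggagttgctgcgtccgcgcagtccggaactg
Aurka: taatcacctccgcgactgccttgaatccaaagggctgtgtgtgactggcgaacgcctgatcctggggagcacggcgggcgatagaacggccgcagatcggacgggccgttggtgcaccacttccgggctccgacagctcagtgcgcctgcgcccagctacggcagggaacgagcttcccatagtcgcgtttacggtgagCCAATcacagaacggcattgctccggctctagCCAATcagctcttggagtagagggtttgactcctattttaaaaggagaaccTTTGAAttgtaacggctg
Bub1: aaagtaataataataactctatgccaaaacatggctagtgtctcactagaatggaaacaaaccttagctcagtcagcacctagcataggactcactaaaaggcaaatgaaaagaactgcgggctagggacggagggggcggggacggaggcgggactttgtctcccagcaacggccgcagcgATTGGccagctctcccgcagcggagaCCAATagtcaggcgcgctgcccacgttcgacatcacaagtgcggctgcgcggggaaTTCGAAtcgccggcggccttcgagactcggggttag
Bub1b: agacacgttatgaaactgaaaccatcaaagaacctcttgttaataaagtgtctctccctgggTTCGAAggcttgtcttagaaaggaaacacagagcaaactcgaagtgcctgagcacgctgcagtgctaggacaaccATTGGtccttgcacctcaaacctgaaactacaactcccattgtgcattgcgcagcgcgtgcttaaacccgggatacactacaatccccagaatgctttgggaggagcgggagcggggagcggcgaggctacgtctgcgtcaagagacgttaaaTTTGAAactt
Ube2c: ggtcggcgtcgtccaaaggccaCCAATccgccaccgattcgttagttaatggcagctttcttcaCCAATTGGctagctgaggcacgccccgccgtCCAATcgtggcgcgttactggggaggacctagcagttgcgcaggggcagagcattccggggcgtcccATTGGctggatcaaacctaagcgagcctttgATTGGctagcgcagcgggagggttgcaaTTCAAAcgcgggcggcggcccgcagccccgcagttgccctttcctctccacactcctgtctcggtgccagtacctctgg
Ndc80: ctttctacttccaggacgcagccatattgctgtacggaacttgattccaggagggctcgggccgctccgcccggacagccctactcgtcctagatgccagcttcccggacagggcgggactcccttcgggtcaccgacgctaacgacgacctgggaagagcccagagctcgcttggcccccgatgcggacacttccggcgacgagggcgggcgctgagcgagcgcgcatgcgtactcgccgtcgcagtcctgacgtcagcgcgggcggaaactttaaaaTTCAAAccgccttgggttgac
Cdc20: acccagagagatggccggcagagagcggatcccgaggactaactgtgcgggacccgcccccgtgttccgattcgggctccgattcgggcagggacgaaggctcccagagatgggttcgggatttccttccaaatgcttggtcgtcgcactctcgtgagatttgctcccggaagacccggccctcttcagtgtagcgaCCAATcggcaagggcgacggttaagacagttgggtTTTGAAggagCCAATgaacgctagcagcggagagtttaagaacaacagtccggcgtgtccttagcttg

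Among the 37 windows, 30 (81.1%) held TTTGAA or TTCGAA, against 19.4% of all 27025 promoter windows and 14.1% of the 7785 windows of genes tested. TTTGAA was present in 28 and TTCGAA in 4, or 75.7% and 10.8% of the members, where all promoters gave 18.1% and 1.57%. CCAAT was present in 28 windows (75.7%), against 37.9% of all promoters. Letters of both kinds stood in 26 windows (70.3%), against 7.70% of all promoters, and 19 windows held 2 or more CCAAT (51.4%, against 12.2%). The CHR letters lay close to the start, within 50 bases on either side in 28 members, and 50 of the 64 CCAAT matches lay in the 150 bases before it. The windows of Mad2l1, Pttg1, Birc5, Nuf2 and Nusap1 held none of these letters, as did 50.3% of all promoters. The windows of Pttg1, Kif2c, Kif4 and Cdca8 lie wholly within the annotated gene, so they do not cover its annotated 5′ end. Bub3, Prc1 and Ect2 had 2 windows each, and only the first was counted. In the other window of Bub3 the CHR letters begin 167 bases before the start. All 6 called members with a window had CHR letters, as did 24 of the 31 that were not called (77.4%). In Cdk1 the CHR letters begin 71 and 15 bases before the start, with CCAAT matches 80 and 48 bases before it. Ube2c had 6 CCAAT matches, while Ndc80 had CHR letters 29 bases after the start and no CCAAT.

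**Figure D2:**
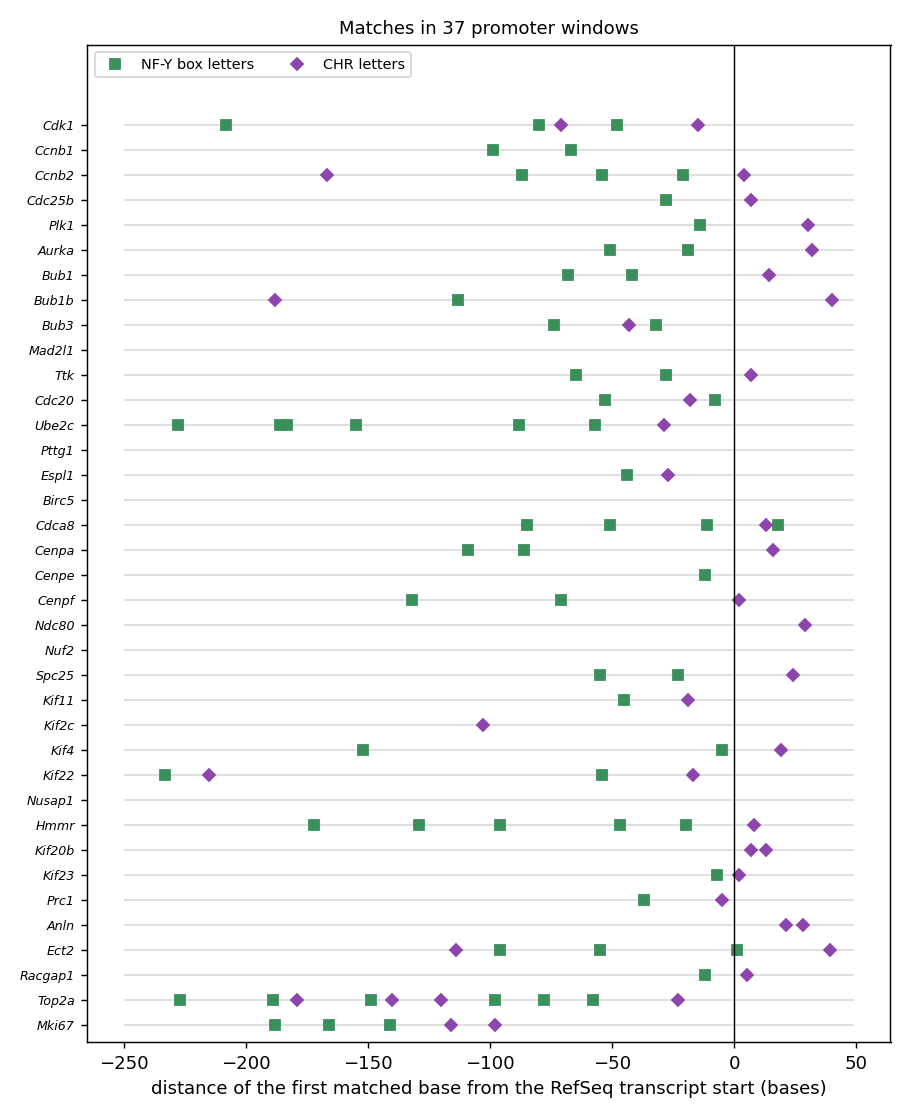
Positions of the matched letters in the 37 promoter windows (x axis, bases from the RefSeq transcript start to the first matched base; y axis, members in order of role), with green squares for CCAAT (NF-Y box letters) and purple diamonds for TTTGAA or TTCGAA (CHR letters). In 28 members a diamond lies within 50 bases of the start, and 5 members have no mark.

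Of the 9 genes of mitotic entry, 2 were higher, 1 was lower and 6 did not pass, where 13.8% of all genes tested were called higher and 11.7% lower. Cdk1 (ENSMUSG00000019942), the kinase that drives entry, measured 8.865, 8.206 and 8.998 FPKM after PGAM5 knockdown and 6.69, 6.36 and 6.39 after DRP1 knockdown. All 3 PGAM5 knockdown libraries were above all 3 DRP1 knockdown libraries. The means were 8.69 ± 0.42 and 6.48 ± 0.19 (SD, n = 3 each), a ratio of 1.34 and a log2 difference of 0.37 (SE 0.05, limma adjusted p = 0.00173). Groups that do not overlap give an exact permutation p of 0.1, the smallest that 3 libraries against 3 allow, and this holds for each of the 8 called members.

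The cyclins that activate CDK1 did not pass. Ccnb1, cyclin B1 and the most abundant gene of mitotic entry, measured 26.7, 26.6 and 28.3 FPKM after PGAM5 knockdown and 26.9, 27.8 and 27.0 after DRP1 knockdown. The groups overlapped, and the 95% interval of the log2 difference was -0.08 to 0.08. For 52.0% of the bases of its longest transcript, the near-identical copies Ccnb1-ps, Gm12856 and Gm8416 match it, and these measured at most 1.14 FPKM in any library. The intervals were -0.16 to 0.08 for Ccnb2, cyclin B2, and -0.02 to 0.18 for Ccna2, cyclin A2. Whether Cdk1 differed more than its cyclins was not tested.

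The phosphatase Cdc25c (ENSMUSG00000044201), which removes inhibitory phosphate from CDK1, went the other way. It measured 3.39, 2.87 and 2.45 FPKM after PGAM5 knockdown and 4.22, 4.49 and 4.96 after DRP1 knockdown, with no overlap. The means were 2.90 ± 0.47 and 4.55 ± 0.37 (SD, n = 3 each), a ratio of 0.638. Its log2 difference of -0.51 (SE 0.10, limma adjusted p = 0.00847) was the one of greatest size among the 45. The predicted gene Gm3550 lies opposite 12.7% of its exonic bases and measured at most 0.0370 FPKM. Cdc25b, the sister phosphatase, had overlapping groups and an interval of -0.27 to 0.01.

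Aurka (ENSMUSG00000027496), the kinase of centrosome maturation and spindle assembly, measured 25.71, 26.77 and 27.05 FPKM after PGAM5 knockdown and 23.62, 24.04 and 24.03 after DRP1 knockdown. The groups did not overlap, but the step was small, at a ratio of 1.11 and a log2 difference of 0.14 (SE 0.03, limma adjusted p = 0.0172). The call was lost without PGAM5 knockdown library 2 (limma adjusted p = 0.0591) and without any 1 of DRP1 knockdown libraries 1 to 3 (limma adjusted p = 0.0679, 0.0560 and 0.0568). Plk1, the polo-like kinase that acts beside it, had an interval of -0.12 to 0.09, and Foxm1, a transcription factor of G2 and M genes, of -0.30 to 0.17.

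**Figure D3:**
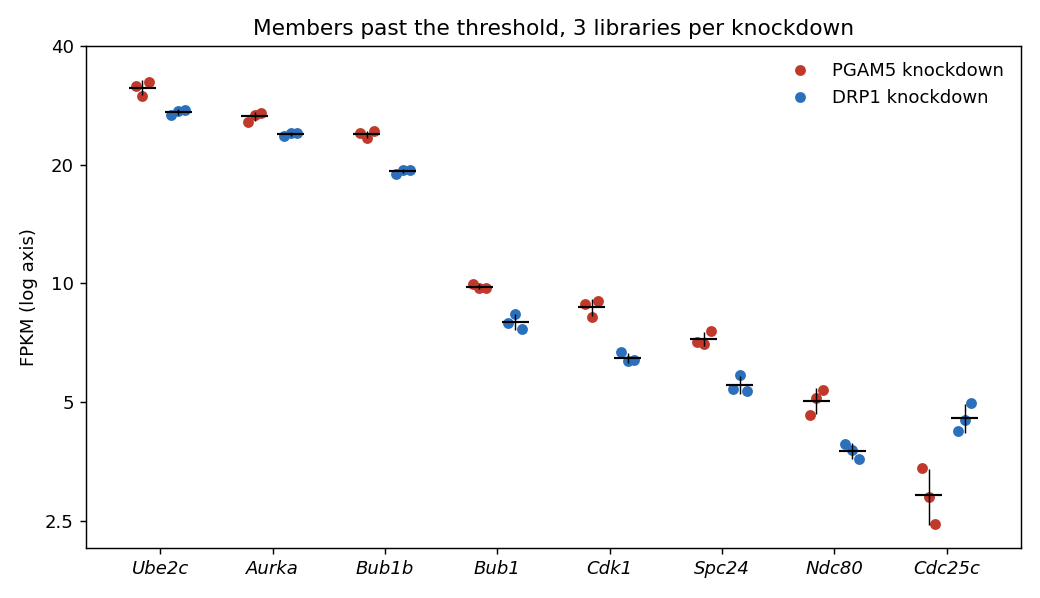
FPKM (y axis, log axis) of the 8 members past the threshold (x axis) in each of the 3 PGAM5 knockdown libraries (red) and 3 DRP1 knockdown libraries (blue), with horizontal bars for the mean and vertical bars for 1 SD. The red points lie above the blue points for 7 genes, and below them for Cdc25c, at 2.45 to 3.39 against 4.22 to 4.96 FPKM.

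Of the 5 spindle checkpoint genes, 2 were higher and 3 did not pass, where 13.8% of all genes tested were called higher. Bub1b (ENSMUSG00000040084) encodes BUBR1, part of the mitotic checkpoint complex that inhibits the APC/C, and was the most abundant of the 5. It measured 24.04, 23.35 and 24.32 FPKM after PGAM5 knockdown and 18.96, 19.39 and 19.37 after DRP1 knockdown. The groups did not overlap, at means of 23.9 ± 0.50 and 19.2 ± 0.24 (SD, n = 3 each), and the log2 difference of 0.30 (SE 0.03, ratio 1.24) had the smallest p of the 45 (limma adjusted p = 0.000742). Bub1 (ENSMUSG00000027379), the kinase that marks kinetochores for shugoshin and the checkpoint, measured 9.97, 9.72 and 9.74 FPKM against 7.91, 8.36 and 7.67. Its groups did not overlap either, with means of 9.81 ± 0.14 and 7.98 ± 0.35 (SD, n = 3 each), a ratio of 1.23 and a log2 difference of 0.27 (limma adjusted p = 0.00440).

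The other checkpoint genes overlapped between the groups. Bub3, the WD-repeat partner that brings BUB1 and BUBR1 to kinetochores, had an interval of -0.01 to 0.19 around a log2 difference of 0.09. Mad2l1, which encodes MAD2, the inhibitor of CDC20, had an interval of -0.19 to 0.09. Ttk, which encodes the MPS1 kinase at the top of the checkpoint, had an interval of -0.18 to 0.13.

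Among the 4 anaphase genes, 1 was higher and 3 did not pass, where 13.8% of all genes tested were called higher. Ube2c (ENSMUSG00000001403), the ubiquitin-conjugating enzyme of the APC/C, measured 31.7, 29.8 and 32.4 FPKM after PGAM5 knockdown and 26.7, 27.4 and 27.5 after DRP1 knockdown. The groups did not overlap, and the means of 31.3 ± 1.37 and 27.2 ± 0.47 (SD, n = 3 each) gave a ratio of 1.15 and a log2 difference of 0.20 (limma adjusted p = 0.0106). The gene Tnnc2 lies opposite 22.8% of its exonic bases and was at 0 FPKM in every library. Cdc20, the APC/C activator that the checkpoint restrains, measured 44.72, 45.02 and 47.21 FPKM against 47.52, 44.16 and 43.42. Its groups overlapped, and the interval was -0.08 to 0.12. Pttg1, which encodes securin, was above the DRP1 knockdown in all 3 PGAM5 knockdown libraries without passing the threshold (5.19 ± 0.11 against 4.70 ± 0.21 FPKM, SD, n = 3 each, limma adjusted p = 0.118). Espl1, the separase that securin inhibits, had an interval of -0.12 to 0.19.

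None of the 4 genes of the chromosomal passenger complex passed in limma, with 1, Incenp, at an unadjusted p under 0.05 and 0 called by limma-voom. Of all genes tested, 25.4% passed the adjusted threshold in either direction, so at least that share had an unadjusted p under 0.05. Limma-voom called 1693 of all genes higher and 1489 lower. Incenp, the scaffold of the complex, measured 14.6, 13.6 and 13.1 FPKM after PGAM5 knockdown and 15.2, 15.2 and 15.1 after DRP1 knockdown. It was lower in every PGAM5 knockdown library, with a log2 difference of -0.13 (interval -0.24 to -0.02, limma adjusted p = 0.0748), and without PGAM5 knockdown library 1 it was called lower (limma adjusted p = 0.0252). Cdca8, which encodes borealin, had an interval of -0.10 to 0.09. The intervals of Aurkb, the kinase of the complex, and of Birc5, which encodes survivin, were wide, at -0.33 to 0.20 and -0.13 to 0.30, and their groups overlapped.

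The 7 centromere and kinetochore genes all lay above 0, and 2 of them passed. Of all genes tested, 52.3% lay above 0 and 13.8% were called higher. Ndc80 and Spc24 encode subunits of the NDC80 complex, which binds the plus ends of spindle microtubules, and Nuf2 and Spc25 encode its other subunits. Ndc80 (ENSMUSG00000024056) measured 4.63, 5.12 and 5.37 FPKM after PGAM5 knockdown and 3.92, 3.78 and 3.57 after DRP1 knockdown, a ratio of 1.34 and a log2 difference of 0.34 (SE 0.06, limma adjusted p = 0.00721). Spc24 (ENSMUSG00000074476, chr9:21755442-21760303, minus strand) measured 7.09, 7.02 and 7.56 FPKM against 5.38, 5.85 and 5.33, a ratio of 1.31 and a log2 difference of 0.34 (SE 0.05, limma adjusted p = 0.00367). Neither gene's groups overlapped. Spc25, at 3.50, 3.23 and 3.07 FPKM against 2.96, 2.62 and 2.72, did not overlap either but missed the threshold (log2 difference 0.18, interval 0.03 to 0.33, limma adjusted p = 0.0865). Nuf2 overlapped, with an interval of -0.07 to 0.30. The difference was above 0 for all 4 subunits of the complex and past the threshold for 2. Whether the subunits shifted together was not tested.

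Cenpa, the histone H3 variant that marks the centromere, was the most abundant of the 7 and measured 7.22, 6.74 and 6.80 FPKM after PGAM5 knockdown and 6.38, 6.18 and 6.15 after DRP1 knockdown. Its groups did not overlap, and with a log2 difference of 0.13 (interval 0.03 to 0.23) it came nearest to the threshold of all members that missed it (limma adjusted p = 0.0705). Cenpe, the kinetochore kinesin, and Cenpf, a kinetochore protein that peaks in G2 and M, overlapped, with intervals of -0.08 to 0.14 and -0.15 to 0.18.

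None of the 7 spindle motors and microtubule-binding genes passed in limma, with 1, Nusap1, at an unadjusted p under 0.05. At least 25.4% of all genes tested had such an unadjusted p. Tpx2, the activator of Aurora A on spindle microtubules, measured 19.67, 19.09 and 20.05 FPKM after PGAM5 knockdown and 19.04, 19.03 and 19.05 after DRP1 knockdown, a log2 difference of 0.04 (interval -0.04 to 0.12). Nusap1, which bundles and stabilises spindle microtubules, measured 5.09, 6.19 and 6.12 FPKM against 4.68, 4.96 and 4.95, a difference of 0.21 (limma adjusted p = 0.0733). Neither gene's groups overlapped. Nusap1 was called higher with limma-voom on recovered reads (adjusted p = 0.0468) and without PGAM5 knockdown library 1 (limma adjusted p = 0.0122). Kif11, the kinesin that pushes spindle poles apart, had an interval of -0.07 to 0.14, and the chromokinesins Kif4 and Kif22 had -0.06 to 0.20 and -0.11 to 0.12. Kif2c, which depolymerises microtubules at centromeres, and Hmmr, a spindle-associated protein, had -0.07 to 0.28 and -0.24 to 0.07. The groups overlapped for these 5 genes.

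The 7 genes of the central spindle and cytokinesis gave no call either, by limma, at an unadjusted p under 0.05 or by limma-voom. At least 25.4% of all genes tested had such an unadjusted p. Of the 7 genes, 6 lay above 0, as did 52.3% of all genes tested. Ect2, the exchange factor that activates RhoA at the division plane, measured 7.89, 7.95 and 7.82 FPKM after PGAM5 knockdown and 7.81, 7.35 and 7.28 after DRP1 knockdown. Kif23, the motor of centralspindlin, measured 3.60, 4.19 and 4.22 FPKM against 3.69, 3.34 and 3.37, and its log2 difference of 0.16 was the largest of these 7 (interval -0.00 to 0.32, limma adjusted p = 0.132). The groups of Kif23 overlapped through PGAM5 knockdown library 1. Racgap1, the other part of centralspindlin, had an interval of -0.11 to 0.11. Prc1, which bundles midzone microtubules, Anln, the anillin of the contractile ring, and the kinesins Kif20b and Kif20a all overlapped, with log2 differences of 0.04, 0.08, 0.07 and -0.11. For Kif20a, 29.3% of the exonic bases lie opposite those of Cdc23, so without strand its reads and those of Cdc23 cannot be told apart there.

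The 2 mitotic chromosome genes, often used as labels of dividing cells, did not pass, at an unadjusted p under 0.05 or by limma-voom either. At least 25.4% of all genes tested had such an unadjusted p. Top2a, the topoisomerase that disentangles chromosomes, measured 14.2, 13.8 and 14.2 FPKM after PGAM5 knockdown and 13.7, 13.9 and 12.9 after DRP1 knockdown. Mki67, whose Ki-67 protein coats mitotic chromosomes, gave means of 5.60 ± 0.34 and 5.81 ± 0.21 FPKM (SD, n = 3 each). The groups overlapped for both genes, with intervals of -0.04 to 0.15 and -0.17 to 0.08.

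The members spanned a wide range of levels. Averaged over the 6 libraries, Cdc20 was highest at 45.3 FPKM, followed by Ube2c at 29.3, Ccnb1 at 27.2, Aurka at 25.2 and Bub1b at 21.6. The lowest were Espl1 at 2.58, Ttk at 2.40 and Cenpf at 1.74, and the median member stood at 6.26 FPKM, against 9.03 over all genes tested. The depth behind these values was 144 to 2602 recovered reads per member and library, which puts the counting error in the smallest library at 8.33% for Pttg1 and 2.23% for Bub3. The summed level of the 45 genes was 437, 432 and 442 FPKM after PGAM5 knockdown and 419, 416 and 411 after DRP1 knockdown. The sums did not overlap, with means of 437 ± 5.34 and 415 ± 4.14 FPKM (SD, n = 3 each). Abundant genes weigh most in this sum, which includes the 7 members called higher. The median FPKM of the 45 overlapped, at 6.43, 5.91 and 6.12 against 5.95, 5.91 and 5.76. Among single genes tested, 23.0% were higher without overlap, and what the difference in sums reflects was not tested.

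**Figure D4:**
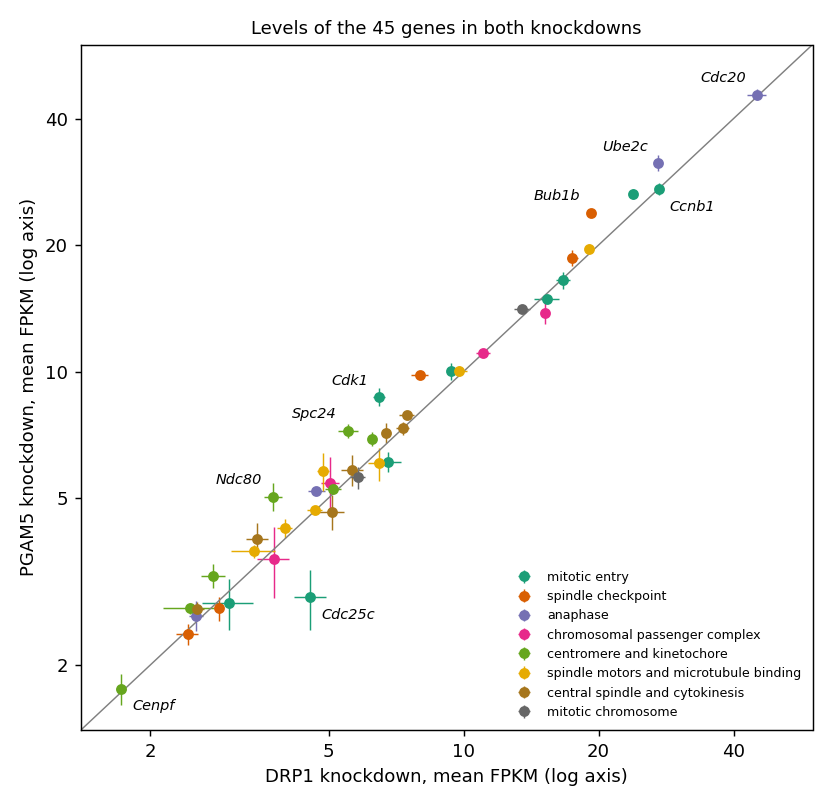
Mean FPKM of each of the 45 genes in the DRP1 knockdown (x axis, log axis) and in the PGAM5 knockdown (y axis, log axis), coloured by role, with bars of 1 SD over 3 libraries and a grey line of equal levels. Points keep close to the line from Cenpf, at 1.74 FPKM over the 6 libraries, to Cdc20 at 45.3, and Cdc25c is the point farthest below it.

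The intervals bound the size of the differences that did not pass. In 27 of those 37 members the whole 95% interval lay within 0.25 of 0 on the log2(FPKM + 1) scale, and the standard errors of the 45 ran from 0.03 to 0.11 with a median of 0.05. Of the 45 members, 13 were higher and 2 lower in the PGAM5 knockdown without overlap of the groups. The shares of all genes tested that did so were 23.0% and 20.5%. The same 8 members were called under quantile normalization and under median-ratio scaling of the libraries.

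Other genes of the cell cycle, taken from lists of textbook membership, give the setting. In the remaining machinery of mitosis, 96 further genes were tested, of which 15 were higher and 3 lower. These were 15.6% and 3.1%, where all genes tested gave 13.8% and 11.7%. Of 17 APC/C subunits and partners, 4 were higher and none lower in limma (median log2 difference 0.06), with Anapc5 at 0.19 and Anapc4 at 0.17. With limma-voom on recovered reads 4 were higher and 1, Cdc23, was lower (adjusted p = 0.0395). Of 25 further kinetochore genes, 4 were higher and 2 lower (median 0.07): Cenpp and Cenpm of the inner kinetochore differed by 0.42 and 0.38, while Cenpo, of the same layer, was at -0.27 and Spdl1, an adaptor of dynein, at -0.12. Of 15 cohesin, condensin and shugoshin genes, 4 were higher (median 0.10), among them Rad21, the cleavable subunit of cohesin, at 0.28 and Ncaph, a condensin subunit, at 0.21. Of 28 further mitotic kinases, motors and spindle proteins, 3 were higher and 1 lower (median 0.04), with the CDK-binding protein Cks2 at 0.29, the kinesin Kif18a at 0.27 and Arhgap11a, a RhoA regulator, at -0.14. The shares of these lists lay on both sides of the background of 13.8% higher, and all below that of 11.7% lower. For Cenpo, 22.5% of the exonic bases lie opposite Adcy3 and Ptrhd1, and for Cenpp 12.6% lie opposite Aspn and Ippk. Gm12891, Gm15452 and Gm19945 match 34.7% of the longest Cks2 transcript. The levels of these partners are not given here. The calls of Anapc5, Cenpm, Rad21 and Cks2 held in every alternative run, while those of Anapc4, Cenpp, Cenpo, Spdl1, Ncaph, Kif18a and Arhgap11a were each lost in 3 to 8 of them. The APC/C count was 2 when the PGAM5 knockdown replicate left out was 2, and 1 when it was 3 or when any 1 DRP1 knockdown replicate was left out. The cohesin and condensin count was 1 without replicate 2 of the PGAM5 group or replicate 1 of the DRP1 group, and 2 without replicate 2 of the DRP1 group. The further mitotic list had 1 gene higher without replicate 1 or 2 of the PGAM5 group or replicate 1 or 3 of the DRP1 group. It had 0 lower without replicate 2 or 3 of either group. The kinetochore list had 1 gene lower without replicate 2 of the PGAM5 group, and 0 without its replicate 1 or any 1 replicate of the DRP1 group. The counts over all genes also changed when each library was left out. They were 980 to 1456 higher, against 1464, and 819 to 1287 lower, against 1240.

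Of 11 genes of the DREAM complex and B-MYB, whose products include readers of the CHR, none was called by limma (median -0.01). At an unadjusted p under 0.05, 1 was higher and 1 lower, and limma-voom called 0. At least 25.4% of all genes tested had such an unadjusted p, and limma-voom called 1693 of all genes higher and 1489 lower. E2f5, a partner of the complex, was called higher with a filter at a mean FPKM of 5 and without DRP1 knockdown replicate 2 (limma adjusted p = 0.0415 and 0.0236). The most abundant, E2f4, a repressor of cell cycle genes, measured 53.4 ± 1.85 FPKM after PGAM5 knockdown and 57.2 ± 0.81 in the DRP1 knockdown (SD, n = 3 each, limma adjusted p = 0.0733). It was called lower under quantile normalization and median-ratio scaling (limma adjusted p = 0.0224 and 0.0496).

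Genes of DNA replication and of G1 were called in larger shares. Of 33 DNA replication genes tested, 18 were higher and none lower (median log2 difference 0.19), or 54.5% against the background of 13.8%. Gins1, a subunit of the replicative helicase, measured 9.43, 9.45 and 9.83 FPKM after PGAM5 knockdown and 6.14, 6.15 and 5.56 after DRP1 knockdown, a log2 difference of 0.61. Its groups did not overlap, and the call held in every alternative. The count of replication genes was 10 without DRP1 knockdown library 1 and 8 without library 2. In those runs 1000 and 980 of all genes were called higher, against 1464 with all libraries. Of 12 CDK inhibitors and G1 cyclins and kinases tested, 7 were higher and none lower in limma (median 0.25), including Cdkn1b, the inhibitor p27, at 0.45 and Cdk6, a G1 kinase, at 0.45. Under quantile normalization 1 gene of this list, the G1 kinase Cdk4, was called lower (limma adjusted p = 0.0205). The list thus holds brakes and drivers of the cycle among its called genes. Whether these lists differed from the mitosis and spindle genes was not tested. In promoter letters, 6 of 27 replication windows (22.2%) held CHR letters and 17 (63.0%) held CCAAT, and 38 of 85 windows of the other mitotic lists (44.7%) held CHR letters.

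**Figure D5:**
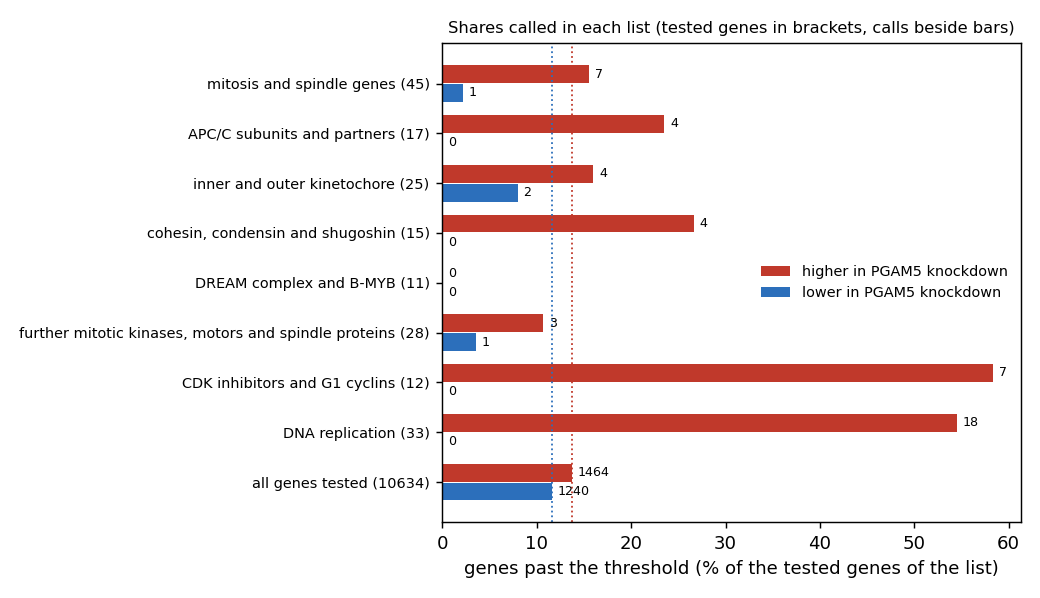
Share of tested genes called higher (red) or lower (blue) in the PGAM5 knockdown (x axis, percent of the tested genes of each list) for the 45 mitosis and spindle genes, the other lists and all genes tested (y axis), with calls beside the bars and dotted lines at the shares of all genes, 13.8% higher and 11.7% lower. The mitosis and spindle genes lie near the dotted line for higher calls, with 7 of 45, where DNA replication had 18 of 33.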

How the data were processed

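RNA sequencing of 6 libraries was used. The authors deposited FPKM values for each gene and library. HISAT2 2.0.5, featureCounts 1.5.0-p3 and mm10 are named per the submitters' processing notes. Not given in the sources used here are the annotation release, the FPKM formula and the strand setting. The labels' protocols name both a directional and a non-directional library, so a gene and an opposite-strand partner cannot be told apart. FPKM divides by a library's total, so very abundant genes lower the values of all others. Symbols, coordinates and exonic lengths came from GENCODE M21, which matched 54495 identifiers and left 37.

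Values times exonic length and depth lay within 0.02 of a whole read for at least 96.1% of values in each library. Those reads served for the depth of each gene and, with the fitted depth as library size, for limma-voom. The values of Cdc25c, Incenp, Kif11 and Kif20a did not come out whole. Genes with a mean of at least 1 FPKM were tested on log2(FPKM + 1), which understates changes of low genes, with limma 3.58.1 in R 4.3.3 (empirical Bayes with trend, two-sided, Benjamini-Hochberg over all genes tested). Ratios are of mean FPKM, and intervals are limma's 95% intervals. The steps were also run on simulated reads, drawn with a fixed spread that was not fitted to these libraries. That run checks the steps and gives no error rate for these data. Near-identical transcripts were found with blastn 2.17.0 (at least 97% identity over 100 bases).

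The members and the other lists were chosen with earlier results of these data known. Named in full were both targeted genes, every called member, and in each role the member with the highest mean and the one with the largest difference. From each other list, up to 2 called genes in each direction were named, or the most abundant if none was called. One gene that this rule takes is not reported here. Other members are given by intervals, and Spc25, Pttg1 and Mki67 were picked for fuller values after these were seen. Cdc23, E2f5, Cdk4 and the macrophage markers were likewise named after their values were seen. Alternatives changed the pseudocount, filter, scaling, trend, replicate block, tool and libraries.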

Additional observations from a re-analysis of the deposited data

How the results depend on the processing

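The 7 members called higher stayed at 6 to 8 over 14 alternatives, and no called member changed direction. Over the same alternatives the count of all genes higher ran from 980 to 1693, against 1464. The count of members lower was 0 with a filter at a mean FPKM of 5, where Cdc25c and Ndc80 were not tested and 28 members were, and it was 1 to 2 when each library was left out in turn. Leaving out each library moved the members' median log2 difference between 0.0392 and 0.0661 (the upper value without DRP1 knockdown replicate 1), and the count of all genes lower between 819 and 1287, against 1240. The call of Aurka was lost without PGAM5 knockdown replicate 2 and without any 1 DRP1 knockdown library. Over all alternatives the higher count ran from 8 to 20 for DNA replication, 1 to 4 for the APC/C, 1 to 5 for cohesin and condensin, 1 to 4 for the further mitotic list and 3 to 5 for the kinetochore list, and the lower count from 0 to 2 for the kinetochore list and 0 to 1 for the further mitotic, APC/C, G1 and DREAM lists. The higher count of the DREAM list ran from 0 to 1. Calls lost among the other lists numbered 7 of 14 alternatives for Anapc4 and Spdl1, 6 for Arhgap11a, 3 for Ncaph, and, of 13, 6 for Cenpo and Cenpp and 8 for Kif18a. Same-numbered libraries deviated together with correlations of 0.02, 0.03 and -0.00, and not every library correlated best with its own number, so the numbers were not taken as pairs. With a replicate block, 7 members were higher and 1 lower, and the counts over all genes were 1161 and 972. The block changed no call among the members, and took the higher counts to 2 for the APC/C and cohesin lists and 1 for the further mitotic list. It also ended the lower calls of Cenpo, Spdl1 and Arhgap11a, leaving 0 lower in the kinetochore and further mitotic lists. Depth limits the members with fewest reads, down to 144 for Pttg1. The single FPKM scale, the unknown strand and 3 libraries per group limit all values, and the cause of the other changes was not tested.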
